A study of Mus musculus with 4 samples.

Results

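Layer 6 corticothalamic excitatory neurons were examined as single nuclei of cortex from Gclc-KO mice. In these mice a floxed Gclc allele on a C57BL/6NTac background is removed by CaMKII-Cre, a driver active in forebrain excitatory neurons, and Gclc encodes the catalytic subunit of the enzyme that starts glutathione synthesis. The 4 libraries were Gclc-KO mice without further treatment, from 2 mice aged 3 months (3M-1, then 3M-2) and 2 mice aged 6 months (6M-1, then 6M-2), and values given for all 4 follow this order. No wild-type library was analysed here, so every difference below lies within the knockout. Nuclei came from dissected cortex rich in rod-shaped microglia and were sorted as DAPI-positive singlets. Libraries were made with the 10x Genomics 3′ v3.1 kit, per the labels. The labels give each age a batch 1 and a batch 2, equal to the replicate numbers.

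The corticothalamic nuclei were chosen by measured values, that is, by unique molecular identifiers (UMIs, counted molecules) of 9 genes. Nuclei with over 7000 detected genes or over 1% mitochondrial UMIs were left out. A member had at least 1 UMI of Slc17a7 (the vesicular glutamate transporter of cortical excitatory neurons), none of Gad1 and Gad2 (GABA synthesis), at least 3 of Foxp2, 5 of Hs3st4 and 1 of Syt6, and no more than 1 of the layer 6b genes Cplx3, Ccn2 and Nxph4 detected. This selected 1006 of the 30515 nuclei that passed the gene and mitochondrial limits, out of 30784 deposited. The libraries held 258, 239, 262 and 247 members.

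Corticothalamic neurons form the main output of cortical layer 6. They send glutamatergic axons to the thalamus, where they act on relay cells and on the inhibitory reticular nucleus, and they send local branches upward to layer 4. They differ from the intratelencephalic neurons of layers 2 to 6, which project within the cortex, from the pyramidal tract neurons of layer 5, and from layer 6b neurons, the remnant of the embryonic subplate that lies just beneath them. FOXP2, TBR1, SOX5, TLE4 and ZFPM2 are transcriptional regulators known from this cell class.

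The genes used for the choice are described here and were not tested. Foxp2 had a median of 7, 6, 7 and 7 UMIs per member. Hs3st4, which encodes a heparan sulfate 3-O-sulfotransferase, had medians of 32, 31, 21 and 32, so 6M-1 was the lowest library. Syt6, a synaptotagmin, had a median of 2 in every library. In upper-layer nuclei, defined below, a UMI of Foxp2 was seen in 3.56% to 5.54% and of Syt6 in at most 1.48%, whereas Hs3st4 was seen in 30.9% to 43.9%.

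The limit on Syt6 had the most nuclei at its edge. With all other limits held, 425 members sat at the single required Syt6 UMI, and 933 nuclei lay just outside it with none. Those 933 nuclei had 512 CPM of Tle4 (CPM, the usual depth-scaled unit, here a gene's UMIs relative to all UMIs summed over the nuclei) and 877 CPM of Zfpm2, beside 505 and 1057 CPM in the 425 members. Sulf1 and Rorb stood higher outside, at 113 and 47.7 CPM against 69.0 and 17.4 CPM inside. At the Foxp2 limit, 133 members had exactly 3 UMIs and 112 excluded nuclei had 2, with 576 and 532 CPM of Tle4. The Hs3st4 limit set apart 4 members from 2 excluded nuclei, the layer 6b limit 47 from 7, and the absence of Gad1 and Gad2 removed 107 nuclei. Nuclei just outside the Foxp2 or Syt6 limit thus carried Tle4 at similar levels, with Zfpm2 somewhat lower outside on Syt6. These nuclei could enter the comparison group of other excitatory nuclei. Marker levels at the other limits were not measured.

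Depth was similar across the members. They had medians of 12503, 10014, 11018 and 11499 UMIs and of 4020, 3627, 3690 and 3812 detected genes, and their summed UMIs were 3463624, 2554882, 3151285 and 3155115. Library 3M-2 was the shallowest. Scrublet called 5.04%, 14.6%, 9.92% and 7.69% of the members doublets, highest in 3M-2, and these nuclei were kept in the main fits and left out in an alternative. Pairs of libraries shared between 12 and 19 barcodes over all deposited nuclei and none among the members. Pearson's correlation of log2 CPM across 12666 genes, which are not independent replicates, was 0.948 between the 3-month and 0.971 between the 6-month libraries. Between ages it was 0.948 to 0.969, and 3 of these 4 pairs exceeded the pair at 3 months. Xist, transcribed from the inactive X chromosome, stood at 1729, 1674, 1768 and 1803 CPM in the members.

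Gclc itself (mm10 chr9:77754535-77794485, forward strand) was at 50.2, 39.1, 39.0 and 35.8 CPM in the members. Library 3M-1 was the highest and the others lay close together. The same libraries had 41.2, 33.6, 34.7 and 36.4 CPM in other excitatory nuclei, and the difference between the cell classes did not pass the test (log2 fold change 0.18 ± 0.08 SE, edgeR adjusted p = 0.11). Counting from the 3′ end does not show whether the floxed exon was removed, and without a wild type the loss of Gclc cannot be measured here.

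To ask whether the label holds beyond the genes that chose the nuclei, UMIs were summed per library over the members and over the other excitatory nuclei, and the sums were compared within mice. Other excitatory nuclei had at least 2 UMIs of Slc17a7 and 1 of Rbfox3, no Gad1 or Gad2, and lay in neither the corticothalamic nor the layer 6b gate; they numbered 2113, 2778, 1992 and 2085. Of 15 corticothalamic marker genes that the choice did not use, 12 were higher in the members, 1 was lower and 2 did not pass the test (edgeR quasi-likelihood with the mouse as a block, adjusted p below 0.05). Over all 17648 genes tested, 11.7% were higher and 14.5% lower. The median log2 fold change of the 15 markers was 1.11, against 0.005 over all genes tested.

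The transcriptional co-factor Zfpm2 (chr15:40655035-41104592, forward) was at 1043, 1016, 1175 and 1225 CPM in the members and at 223, 252, 321 and 300 CPM in other excitatory nuclei. The groups did not overlap, and Zfpm2 was higher by a log2 fold change of 2.05 ± 0.06 (SE, n = 4 mice, edgeR adjusted p = 1.32e-12). Tle4 (chr19:14448150-14598051, reverse), a co-repressor of the Groucho family, was at 433, 539.8, 494 and 475 CPM against 98.3, 118, 133 and 153 CPM. Its log2 fold change was 1.98 ± 0.07 (edgeR adjusted p = 1.42e-11). The members again lay above every other value. The comparison group also held nuclei with Foxp2 or Hs3st4. When those with any Foxp2 UMI or at least 5 of Hs3st4 were left out of it, a choice made after seeing the data, it fell to 1226, 1770, 961 and 891 nuclei and the log2 fold changes were 3.41 for Tle4 and 2.82 for Zfpm2. The folds below are against the whole group.

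The other markers followed with smaller levels. Rprm (Reprimo) was at 19.0 to 24.7 CPM in the members and 3.35 to 6.25 CPM in the others, a log2 fold change of 2.10 ± 0.16. Sla, an adaptor protein gene, differed by 2.06 ± 0.21, Garnl3 by 1.85 ± 0.07 and Tbr1 by 1.29 ± 0.09, all in 4 of 4 mice. Crym, Bcl11b, Sulf1 and Fezf2 were higher by 1.11, 1.07, 1.02 and 0.84. Gpr139, an orphan receptor gene, was at only 3.13 to 7.51 CPM but was at most 0.88 CPM in the others.

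The remaining 4 markers separated the groups less well or not at all. Pou3f1 went the other way, at 0, 3.52, 2.86 and 2.22 CPM in the members, below the 6.12 to 9.01 CPM of other excitatory nuclei (log2 fold change -1.97 ± 0.36). Cpa6 passed the test at 0.78 ± 0.18, but in 6M-2 it was at 10.5 CPM against 11.6 CPM and thus not higher in that mouse, and the call was lost without 6M-1 (0.53, edgeR adjusted p = 0.0704) and against the smaller comparison group (0.49). Ntsr1, whose promoter drives the Cre line most used for these neurons, was at 12.7, 11.4, 12.1 and 9.83 CPM in the members and 13.9, 8.30, 6.10 and 7.21 CPM in the others. It did not pass the test (0.40 ± 0.18, edgeR adjusted p = 0.119), but passed without 3M-1 (0.64, edgeR adjusted p = 0.0236) and was at 0.21 without 6M-1 and 0.04 against the smaller group. Nxph2 was at no more than 1.96 CPM in either group of any library.

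**Figure D1:**
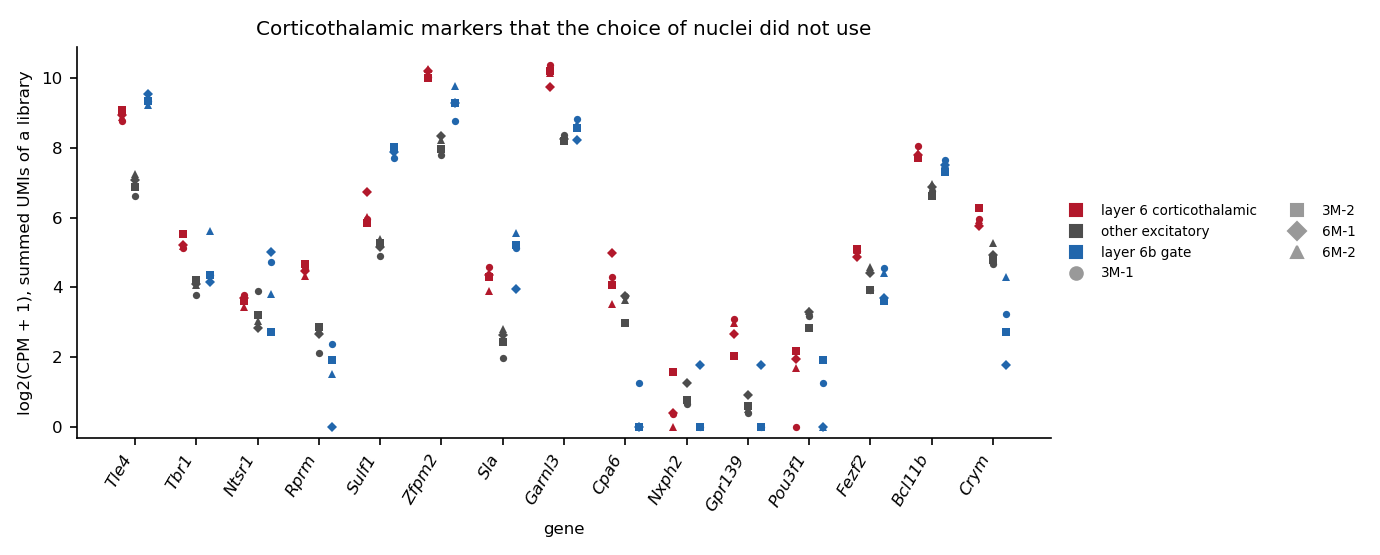
Levels of the 15 corticothalamic markers that the choice of nuclei did not use, as log2(CPM + 1) per library on the vertical axis, for corticothalamic nuclei (red), other excitatory nuclei (grey) and layer 6b-gated nuclei (blue), with a symbol per library. The red points of Zfpm2, between 1016 and 1225 CPM, lie above all grey and blue points, whereas Tle4 and Sulf1 are highest in the layer 6b gate and Ntsr1 overlaps in all 3 groups.

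Among single nuclei the markers differed in how often they were seen. Each nucleus was thinned to 5000 UMIs, which left out 0, 15, 3 and 1 members that were shallower. Zfpm2 was then detected in 97.7%, 98.2%, 98.1% and 98.8% of members, and Tle4 in 84.9%, 87.9%, 90.0% and 85.4%. Upper-layer nuclei, which should lack both genes and were thinned to the same depth, gave a background of 18.9% to 25.1% for Zfpm2 and 17.4% to 19.2% for Tle4. Bcl11b was seen in 63.7% to 70.2% of members and in 9.96% to 12.3% of upper-layer nuclei. Oligodendrocyte nuclei were taken as those with at least 1 UMI of Mog and 3 of St18, both oligodendrocyte genes, and none of Slc17a7. Of 706, 469, 1067 and 843 such nuclei, only 60, 34, 108 and 73 were deep enough to be thinned. In these few deep nuclei the shares were higher than in upper-layer nuclei. They were 23.3% to 38.4% for Zfpm2, 30.6% to 49.3% for Tle4 and 13.3% to 24.1% for Bcl11b. The part of doublets in these shares was not tested.

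Less abundant markers were seen in a minority. Crym was detected in 23.9% to 29.9% of thinned members, Sulf1 in 20.2% to 27.8%, Tbr1 in 14.3% to 19.6%, Fezf2 in 10.4% to 16.3% and Rprm in 8.88% to 12.1%, each above the upper-layer share in the same library. Without thinning, these ranges were 44.3% to 51.2%, 29.3% to 39.3%, 33.2% to 34.7%, 25.2% to 33.3% and 20.2% to 22.9%. For Ntsr1 the thinned share was 4.07% to 8.53% in members and 2.66% to 7.82% in upper-layer nuclei, so at this depth these 2 groups were not distinguishable. In the thinned oligodendrocyte nuclei it was 3.33%, 0%, 0.926% and 0%, below the members of the same library each time.

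Markers of other excitatory layers were lower in the members. All 5 layer 5 markers, all 4 markers of layer 5 near-projecting cells, all 4 layer 4 markers, all 6 upper-layer markers and the 2 layer 6b markers outside the choice were lower in the members than in other excitatory nuclei. Il1rapl2, a layer 5 marker, was at 45.9 to 60.9 CPM in the members and 506 to 628 CPM in the others (log2 fold change -3.43 ± 0.08). Rorb, the layer 4 transcription factor, was at 9.82 to 26.3 CPM against 129.5 to 236 CPM (-3.23 ± 0.15). Of the 4 thalamic markers, 1 was higher and 2 were lower. Slc17a6, the vesicular glutamate transporter of thalamic relay neurons, was lower, at 0.289, 1.17, 0.952 and 1.90 CPM, and Lef1 was lower, at 0 in the members of every library. Tcf7l2 was higher, at 2.02, 3.91, 4.76 and 3.17 CPM against 0.986 to 2.44 CPM, and Prkcd, at 0.289 to 2.54 CPM, did not pass the test. The call for Tcf7l2 was lost in several settings, among them without 3M-1, 3M-2 or 6M-1 and with doublets left out. Of the 6 striatal spiny markers, 3 were higher and 1 lower, with a median log2 fold change of 0.52 against 0.01 over all genes. Rgs9 and Ppp1r1b were higher than in the others (1.11 ± 0.10 and 1.12 ± 0.25), as was Adora2a, at 0.317 to 2.35 CPM against 0.164 to 0.403 CPM, and Drd2 was lower, at 0 in the members of every library. The list summed to 1328, 1903, 718 and 1304 CPM in the members and 1451, 1624, 836 and 1426 CPM in the others, nearly all of it Pde10a, a phosphodiesterase. Pde10a was at 1278, 1861, 681 and 1260 CPM in the members and did not pass the test (-0.08 ± 0.06), although it passed without 3M-2 (-0.17), and Drd1 did not pass either, at 1.96 to 3.81 CPM. The part of striatal RNA in these values was not tested. Adarb2, an inhibitory neuron marker, was at 45.0, 34.8, 76.2 and 31.7 CPM in the members and was higher by 0.40 ± 0.11, although not in 6M-2. Its call was lost without 6M-1 (0.22, edgeR adjusted p = 0.195) and without 3M-1 (0.37, edgeR adjusted p = 0.0709). It was also lost against the smaller comparison group (0.18).

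Glial markers were detected in both groups. The 7 oligodendrocyte markers summed to 109, 167, 197 and 214 CPM in the members, led by Mbp, and to 154, 160, 246 and 253 CPM in other excitatory nuclei. The 8 microglial markers summed to 76.8, 140, 175 and 122 CPM, led by P2ry12, beside 81.6, 121, 167 and 150 CPM. The 6 astrocyte markers summed to 498, 696, 754 and 670 CPM in the members and 304, 382, 403 and 394 CPM in the others, nearly all of it Slc1a2. Slc1a2, a glutamate transporter, was higher in the members (493, 683, 737 and 656 CPM against 283, 356, 378 and 369 CPM), while Slc1a3 was lower, at 2.02 to 8.25 CPM against 10.5 to 13.5 CPM. The part of free glial RNA in these values was not tested.

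Across the transcriptome, 424 genes outside the choice were higher in the members by at least a log2 fold change of 1 with an adjusted p below 0.05, and 1347 were lower by as much. Of these, 407 and 1316 had the same direction in all 4 mice. The 12 higher genes with the smallest adjusted p were Zfpm2, Col5a1, Arhgap25, Cdh18, Serinc2, Gm26619, Ddah1, Pde4d, Sdk2, Tle4, Ighm and Ptk7. The 12 lower ones were Unc5d, Cacna2d3, Il1rapl2, Rtl4, Srgap3, Trpc5, Dgkb, Lrtm1, Tafa2, Hs6st3, Lingo2 and Fras1.

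Col5a1 (chr2:27886425-28039514, forward), a chain of fibrillar collagen V, was at 151, 95.1, 90.1 and 101 CPM in the members and at 13.4, 12.0, 12.1 and 13.0 CPM in other excitatory nuclei. Its log2 fold change of 3.11 ± 0.09 (edgeR adjusted p = 1.32e-12) was the highest of the 12. Ighm, an immunoglobulin heavy chain locus, was at 22.5, 45.0, 57.8 and 50.4 CPM against 2.04, 5.68, 8.08 and 6.71 CPM (3.01 ± 0.11). Arhgap25, a GTPase-activating protein of Rac, was at 112 to 127 CPM against 13.6 to 20.7 CPM (2.84 ± 0.09). For these 3 genes the members and the others did not overlap. Without the Foxp2 or Hs3st4 nuclei in the comparison group, as above, the fold was larger in size for 12 of the 12 named higher genes and 9 of the 12 named lower genes.

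Pde4d, a cyclic AMP phosphodiesterase, and Cdh18, a cadherin, were the most abundant of the 12. Pde4d was at 3275, 3044, 3696 and 3374 CPM in the members and 1214, 1223, 1501 and 1430 CPM in the others, a log2 fold change of 1.33 ± 0.05. Cdh18 was at 1924 to 2632 CPM against 417 to 638 CPM (2.12 ± 0.07). Ddah1, which degrades asymmetric dimethylarginine, was higher by 2.25 ± 0.08, Serinc2 by 2.21 ± 0.07, the pseudokinase Ptk7 by 2.10 ± 0.08 and the adhesion molecule Sdk2 by 1.64 ± 0.06. Library 6M-1 was the lowest for Sdk2 and Serinc2 in both groups of nuclei.

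Against the whole comparison group, the named lower genes reached larger folds than the named higher ones. This order turned against the smaller group. There Col5a1 and Ighm were at 4.46 and 4.36, beside -3.98 for Rtl4 and -3.86 for Trpc5. Unc5d (chr8:28646717-29219636, reverse), a netrin receptor of layer 4 and upper-layer neurons, was at 93.3, 77.9, 88.2 and 55.5 CPM in the members and 829.8, 687, 886 and 588 CPM in the others (log2 fold change -3.24 ± 0.06, edgeR adjusted p = 2.44e-14). Cacna2d3, an auxiliary subunit of voltage-gated calcium channels, was at 86.3 to 104 CPM against 687 to 787 CPM (-2.93 ± 0.06). Trpc5, a cation channel, was at 7.22 to 12.4 CPM against 107 to 136 CPM (-3.69 ± 0.10). Rtl4, a retrotransposon-derived gene, fell furthest among the 12, at -3.82 ± 0.09.

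Lingo2, a leucine-rich repeat membrane protein, was at 215, 281, 276 and 218 CPM against 2691, 2373, 2094 and 1943 CPM (-3.19 ± 0.10). Dgkb, a diacylglycerol kinase, and Tafa2, a secreted protein, were lower, at -2.45 ± 0.07 and -2.67 ± 0.08. Srgap3, a Slit-Robo GTPase-activating protein, was lower, at -2.50 ± 0.07. In each of these the members lay below every library of the other excitatory nuclei.

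Abundant genes passed the test more often, which bears on the lists that follow. Among the 6707 genes with a mean of at least 20 CPM over the 8 sums, 20.8% were higher and 16.4% lower. Lists of neuronal genes hold many such genes, and a list's count is read against these shares as well as against those over all genes.

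Axon guidance genes were mostly lower in the corticothalamic nuclei. Of 34 tested, 22 were lower and 7 higher, and the median log2 fold change was -0.56. Netrin and ephrin receptors were among the lower ones: Unc5c by -2.40 ± 0.11, Dcc by -0.97 ± 0.06 and Epha6 by -3.43 ± 0.15. The netrin-G ligands Ntng1 and Ntng2 were lower, at -3.20 ± 0.12 and -3.31 ± 0.19. The 7 higher genes were 4 semaphorins, the receptors Nrp1 and Plxna2, and Slit1 (0.71 ± 0.07).

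The semaphorin group took both directions. Nrp1, a co-receptor of class 3 semaphorins, was at 317, 389.8, 338 and 395 CPM in the members and 83.2, 99.5, 123 and 141 CPM in the others (1.72 ± 0.08). Its paralog Nrp2 was at 13.6 to 22.8 CPM against 52.5 to 56.6 CPM (-1.63 ± 0.12). Sema5a, Sema5b, Sema3e and Sema3a were higher by 1.71, 1.62, 1.31 and 0.67, and the receptor Plxna2 by 0.83. Plxnd1, a receptor of Sema3e, was lower, at -2.73 ± 0.16, at 2.89 to 5.71 CPM.

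Of 27 cortical transcription factors and co-factors outside the choice, 13 were higher and 12 lower. Nfia, a nuclear factor I protein, was at 581, 451, 542 and 596 CPM in the members and 104, 106, 148 and 167 CPM in the others (2.08 ± 0.08). Sox5, a regulator of deep-layer identity, was higher by 0.75 ± 0.06, Nfib by 0.79 ± 0.06 and Foxp1 by 0.58 ± 0.05. Within the Tle co-repressors, Tle4 was higher whereas Tle1, Tle2 and Tle3 were lower, at -2.32 ± 0.12, -0.70 ± 0.10 and -2.79 ± 0.29. Cux2, Etv1 and Tshz2, known from upper layers, layer 5 and near-projecting cells, were lower, at -2.92, -2.37 and -2.61. Tshz2 varied among the members, at 19.3, 74.4, 30.8 and 67.8 CPM, with both replicate 2 libraries the highest.

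Hs3st4 belongs to the heparan sulfate pathway, whose other genes did not move together. Of 20 tested, 5 were higher and 8 lower. Hs6st3, a 6-O-sulfotransferase, was at 118, 180.4, 134 and 140.4 CPM in the members and 1397 to 1805 CPM in the others (-3.53 ± 0.10). Hs3st5 and Hs3st2, which add 3-O-sulfate as Hs3st4 does, were higher by 1.43 ± 0.07 and 1.09 ± 0.07, and Hs3st1, of the same family, was lower, at -1.68 ± 0.18. The N-deacetylase/N-sulfotransferases split, with Ndst1 higher by 1.32 ± 0.07 and Ndst4 lower, at -3.18 ± 0.29.

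Of 14 synaptotagmins other than Syt6, 5 were higher and 4 lower. Syt17 was at 5.49, 3.52, 1.59 and 2.85 CPM in the members and 71.9, 72.6, 45.3 and 63.1 CPM in the others, a log2 fold change of -4.20 ± 0.14 (edgeR adjusted p = 4.11e-12). Syt12 was higher by 1.24 ± 0.10 and Syt7, a slow calcium sensor that sustains facilitation, by 0.73 ± 0.05. Corticothalamic synapses are known for facilitation. Syt1, the fast calcium sensor of release, was higher by 0.25 ± 0.06.

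Of 22 genes of the presynaptic release machinery, 10 were higher and 6 lower. Nrxn3, a presynaptic adhesion molecule, was at 5852, 6740, 6880 and 6930 CPM against 3375, 4020, 4141 and 3728 CPM (0.80 ± 0.05), and Cplx2, a complexin, was higher by 0.75 ± 0.09. Unc13c and Sv2c were lower, at -2.37 ± 0.17 and -1.31 ± 0.19. Syp, Snap25 and Stx1a did not pass the test, with log2 fold changes between -0.11 and 0.09.

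Glutamate receptor genes changed subunit by subunit. Of 23 tested, 8 were higher and 11 lower. Among kainate receptors, Grik3 was at 545, 448, 387 and 458 CPM in the members and 142, 134, 127 and 174 CPM in the others (1.68 ± 0.07), Grik4 was higher by 1.04 ± 0.08 and Grik1 was lower, at -2.74 ± 0.11. Among metabotropic receptors, Grm8 was higher by 1.21 ± 0.05, whereas Grm7, Grm5 and Grm2 were lower, at -0.97, -0.74 and -2.26. AMPA receptor subunits moved apart, with Gria4 at -0.85 ± 0.06, Gria3 at 0.44 ± 0.05 and Gria2 at 0.27 ± 0.05. The NMDA receptor subunits Grin1 and Grin2b had log2 fold changes of 0.26 and -0.14, the call for Grin2b being lost without 3M-1, 3M-2 or 6M-1, and Grin3a was lower, at -1.82 ± 0.13.

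Of 12 GABA-A receptor subunits, 4 were higher and 3 lower. Gabra2 was at 44.8, 96.3, 109.8 and 79.9 CPM in the members and 242, 337, 307 and 302 CPM in the others (-1.87 ± 0.11). Gabrd, of extrasynaptic receptors, was lower, at -0.73 ± 0.14. Gabrg3, Gabrb1, Gabra5 and Gabrb2 were higher by 0.50, 0.29, 0.29 and 0.18. The call for Gabrb2 was lost without 3M-2, 6M-1 or 6M-2 (edgeR adjusted p = 0.119, 0.105 and 0.153), and that for Gabra5 without 3M-1 (0.19) or 3M-2.

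Of 36 potassium and HCN channel genes, 16 were higher and 15 lower. The lower ones included Kcnb2, a delayed rectifier, at 165 to 203 CPM against 838 to 895 CPM (-2.23 ± 0.07), the beta subunit Kcnab1 (-2.29 ± 0.10), Kcnc2 (-2.08 ± 0.14), Kcnq5 (-1.24 ± 0.08) and Kcnip4 (-1.78 ± 0.07). Kcnk1, a leak channel, was higher by 1.19 ± 0.07 and Kcna1, a low-threshold channel, by 1.05 ± 0.08.

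Receptors for modulatory transmitters and peptides divided evenly. Of 22 tested, 7 were higher and 7 lower. Against the layer 6b gate, described below, Htr4 alone was higher of 19 tested. Hcrtr2, a receptor for the wake-promoting peptide orexin, was at 34.4, 61.1, 31.1 and 55.5 CPM in the members and 7.10, 7.70, 9.61 and 11.1 CPM in the others (2.35 ± 0.15). The nicotinic acetylcholine receptor subunits Chrna5 and Chrna4, known in layer 6, were higher by 2.13 ± 0.24 and 1.62 ± 0.17, at 5.49 to 11.4 and 9.24 to 13.3 CPM. The serotonin receptor Htr1f was higher by 0.96 ± 0.05, and Htr2c and Htr2a were lower, at -2.76 ± 0.10 and -2.08 ± 0.15. Cnr1, the cannabinoid receptor, and Crhr1 were lower, at -1.81 ± 0.11 and -2.42 ± 0.15.

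Activity genes gave 3 higher and 4 lower of 16. Homer1 was higher by 0.56 ± 0.06, Arc by 0.79 ± 0.10 and Egr1 by 0.59 ± 0.09, while the neurotrophin gene Bdnf was lower, at -1.49 ± 0.15, at 6.06, 22.3, 17.1 and 16.5 CPM in the members. Fos and Junb did not pass the test. In a list of 10 genes linked to signals between neurons and microglia, Cd47 and Cx3cl1 were higher by 0.65 ± 0.06 and 0.31 ± 0.07. Il34 and Csf1, ligands of the microglial receptor CSF1R, were lower, at -1.04 ± 0.13 and -0.93 ± 0.24. The call for Csf1 was lost without 3M-1 (-0.75). The C1q-like synaptic gene C1ql3 was lower, at -2.77 ± 0.14.

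Of 36 glutathione and antioxidant genes tested, 8 were higher and 2 lower, with a median log2 fold change of 0.07. Gsr, glutathione reductase, was at 33.5, 27.4, 25.7 and 31.7 CPM in the members and 21.6, 19.7, 17.7 and 17.7 CPM in the others (0.64 ± 0.10). Slc1a1, the neuronal transporter that brings in cysteine, was higher by 0.43 ± 0.07, and Prdx6 was lower, at -0.36 ± 0.10, with the call lost without 3M-1 (-0.34). Gclm and Gss, the other genes of glutathione synthesis, had log2 fold changes of -0.10 ± 0.11 and -0.03 ± 0.10 and did not pass the test. Of 20 stress response and DNA damage genes, Trp53inp1 was higher by 0.77 ± 0.18 at 6.97 to 9.53 CPM, and Atf3 was lower, listed at 0 in all members and at most 1.14 CPM in the others. Among 14 axon injury and growth genes, 4 were higher and 4 lower. Gadd45a was higher by 2.69 ± 0.21, at 11.3, 23.1, 6.66 and 17.1 CPM, and Jun was lower, at -1.25 ± 0.18.

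**Figure D2:**
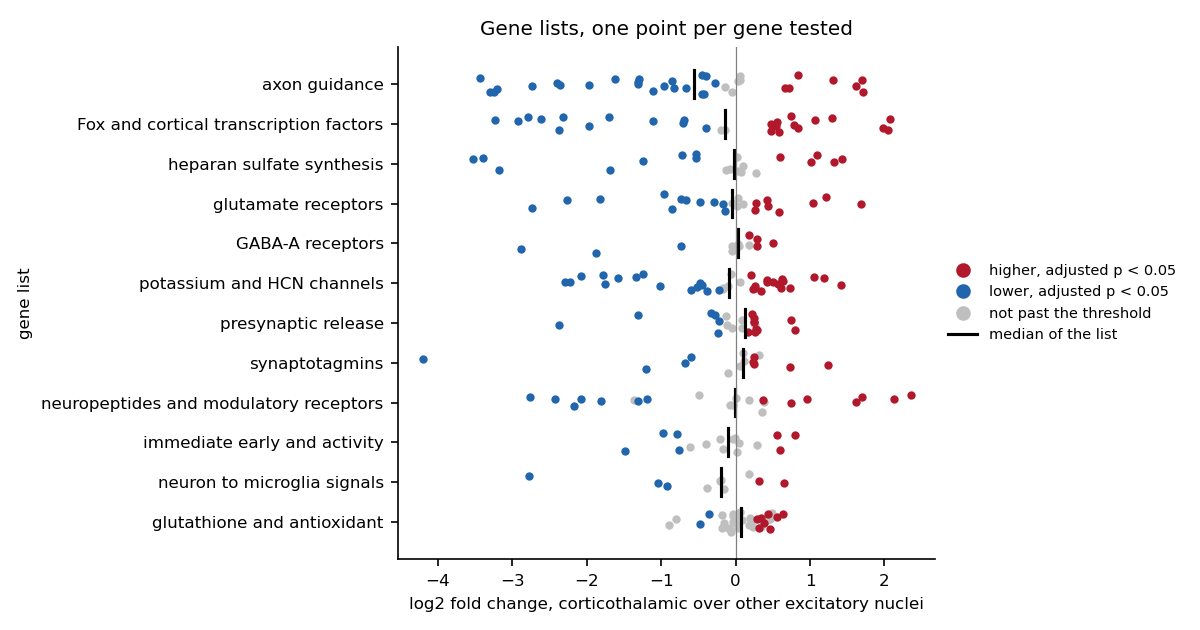
Log2 fold change of corticothalamic over other excitatory nuclei (horizontal axis) for the genes of 12 lists (vertical axis), a point per gene, red where higher and blue where lower at adjusted p below 0.05, grey otherwise, with a black line at each list's median. Axon guidance has the lowest median, -0.56, and the antioxidant genes lie within 1 log2 unit of 0.

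The nuclei of layer 6b lie next to the corticothalamic neurons and share Hs3st4, so they were compared as well. The layer 6b gate took excitatory nuclei with at least 2 of Cplx3, Ccn2 and Nxph4 detected and held 42, 24, 32 and 36 nuclei, with only 358452 summed UMIs in 3M-2. Of 11687 genes tested, 6.49% were higher and 7.72% lower in the corticothalamic nuclei (edgeR with the mouse as a block), and among the 6590 with a mean of at least 20 CPM 8.42% were higher and 10.6% lower. Of the 15 corticothalamic markers outside the choice, 13 were tested, 7 were higher and 3 lower. At a log2 fold change of at least 1, 389 genes were higher and 484 lower.

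Markers often shared by both deep cell types separated here. Tle4 was lower in the corticothalamic nuclei than in the layer 6b gate (602 to 745 CPM there, log2 fold change -0.49 ± 0.09), and so was Sulf1, at 209.5, 262, 237 and 256 CPM in the gate (-1.81 ± 0.15). Sla was lower too, by -0.84 ± 0.27, but in 6M-1 it was at 19.4 CPM in the corticothalamic nuclei and 14.5 CPM in the gate, and the call was lost without 3M-1, 3M-2 or 6M-2 (-0.47 in the last). Crym, Rprm, Garnl3, Zfpm2 and Fezf2 were higher in the corticothalamic nuclei by 2.70, 3.06, 1.51, 0.80 and 0.81, the call for Fezf2 being lost without 3M-2, 6M-1 or 6M-2. Moxd1, a layer 6b marker that no gate used, was at 1.44, 0.391, 0.317 and 0 CPM in the members and 108, 106, 119 and 92.6 CPM in the layer 6b gate.

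The 12 genes higher in corticothalamic than in layer 6b-gated nuclei were Tcf4, Iqgap2, Garnl3, Khdrbs2, Pak7, Arhgap10, Serinc2, Col5a1, Me3, Clstn2, Zmat4 and Mtcl1. Tcf4, a basic helix-loop-helix transcription factor, was at 919, 849, 886 and 849 CPM in the members and 180.0, 142, 99.2 and 156 CPM in the gate (2.56 ± 0.12, edgeR adjusted p = 1.46e-12). Iqgap2, a cytoskeletal scaffold, was at 228, 409, 174 and 292 CPM against 7.03, 16.7, 4.84 and 35.2 CPM (4.05 ± 0.23). Me3, the mitochondrial malic enzyme, was higher by 2.46 ± 0.16 and Clstn2, a calsyntenin, by 2.10 ± 0.15. Serinc2 and Col5a1, which also led against other excitatory nuclei, were at 9.26 CPM or less in the layer 6b gate of every library.

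The 12 lower genes were Kcnab1, Inpp4b, Tmem163, Cdh10, Kcnip4, Svil and 6 noncoding transcripts, A330015K06Rik, 4930555F03Rik, C130073E24Rik, Gm41414, Gm20754 and Gm2516. Kcnab1 (chr3:65109384-65378223, forward) was at 54.9, 57.9, 67.9 and 48.2 CPM in the members and 1201, 1066, 1384 and 1024 CPM in the gate, a log2 fold change of -4.39 ± 0.11 (edgeR adjusted p = 2.63e-17). A330015K06Rik (chr3:65133060-65302685, reverse) lies inside Kcnab1 on the opposite strand. Its level was 31.5, 51.3, 65.7 and 34.6 CPM against 682, 1043, 1183 and 1237 CPM. Whether reads of the pair were shared was not tested. Tmem163, a zinc transporter of synaptic vesicles, was at 8.66 to 19.0 CPM against 409 to 477 CPM (-5.19 ± 0.16). Inpp4b, a phosphoinositide phosphatase, and Cdh10, a cadherin, were lower, at -3.64 ± 0.10 and -3.65 ± 0.11. Svil, the actin-binding protein supervillin, was lower, at -5.01 ± 0.19. On chromosome 8, 4930555F03Rik (chr8:49370886-49548994), Gm2516 (chr8:50368112-50416088) and C130073E24Rik (chr8:50743291-50916997) lie near each other, and all 3 were lower, at -4.95, -6.02 and -5.64.

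**Figure D3:**
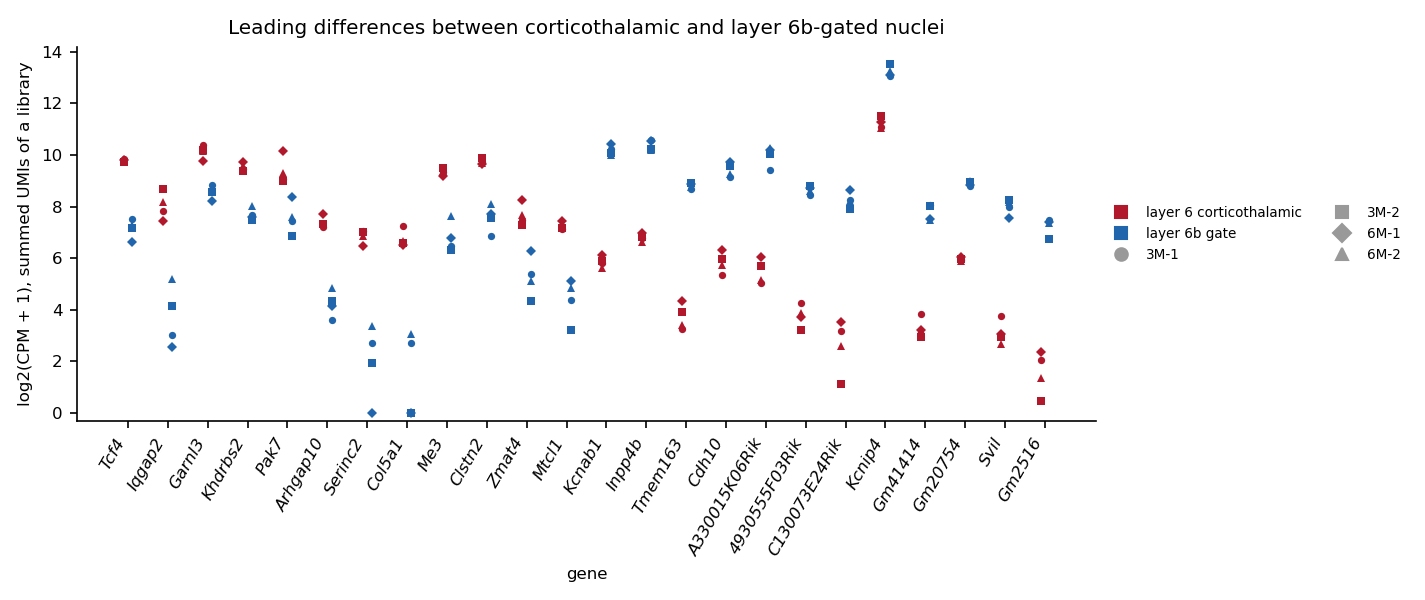
Levels of the 24 leading genes between corticothalamic nuclei (red) and layer 6b-gated nuclei (blue), as log2(CPM + 1) per library on the vertical axis, the 12 higher genes on the left and the 12 lower on the right. The colours do not overlap for any of the 24 genes, which were picked for having the same direction in all 4 mice.

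Receptor and channel genes also separated the deep classes. Of 22 glutamate receptor genes tested, 9 were higher and 2 lower in corticothalamic nuclei, led by Grm8 (2.21 ± 0.16) and Grin2a (1.21 ± 0.09). Among the GABA-A subunits, Gabrg3 was higher by 1.91 ± 0.15 and Gabra5 lower, at -1.04 ± 0.14. Of 36 potassium and HCN channel genes, 11 were higher and 11 lower, with Kcnn3 at -2.84 ± 0.18. Of 19 modulatory receptors, 1 was higher and 6 lower: Htr4 was at 81.1, 50.9, 32.7 and 50.1 CPM in the members and at most 13.0 CPM in the gate, whereas Htr2a and Drd1 were lower, at -4.00 ± 0.23 and -3.42 ± 0.33. Axon guidance genes gave 12 higher and 11 lower of 31, with Nrp1 at 2.38 ± 0.19 and Nrp2 at -3.04 ± 0.19. Gap43, a growth cone protein, was lower, at -0.95 ± 0.13, at 103 to 112 CPM against 159.6 to 238 CPM.

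The design compares 3 with 6 months of age. The members made up 10.7%, 7.86%, 11.5% and 10.4% of excitatory nuclei, with exact 95% binomial intervals of 9.49% to 12.0%, 6.93% to 8.87%, 10.2% to 12.8% and 9.23% to 11.7% that cover counting error only. The ages overlapped, with 3M-2 the lowest. The share was 9.28% ± 2.00 (SD, n = 2) at 3 months and 10.9% ± 0.73 at 6 months, and the difference of 1.67 percentage points gave p = 0.667 in an exact two-sided permutation test, in which 2 against 2 cannot go below 0.333. After thinning to 5000 UMIs the difference was 1.13 percentage points, with a stricter gate 0.706, without 3M-1 3.09 and without 3M-2 0.254. As a share of all nuclei past the filter, members were 3.26% ± 0.75 at 3 months and 3.42% ± 0.26 at 6 months, a difference of 0.155 percentage points that turned to -0.00775 after thinning.

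The number of corticothalamic nuclei was also set against the upper-layer nuclei. The upper-layer gate took other excitatory nuclei with at least 3 UMIs of Cux2 and fewer than 5 of Hs3st4, and held 569, 533, 270 and 271 nuclei. There were 0.453 and 0.448 corticothalamic nuclei per upper-layer nucleus at 3 months and 0.970 and 0.911 at 6 months. The ages did not overlap, at 0.451 ± 0.004 against 0.941 ± 0.042 (SD, n = 2), a difference of 0.49 that gives the smallest p this design allows, 0.333 (exact permutation, two-sided). Thinned to 5000 UMIs, the difference was 0.625, and with a stricter gate it was 0.192 (0.166 against 0.359). Upper-layer nuclei made up 23.6% and 17.5% of excitatory nuclei at 3 months and 11.8% and 11.4% at 6 months. Fewer upper-layer nuclei, less Cux2 per nucleus and a different depth of dissection cannot be told apart from these counts.

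**Figure D4:**
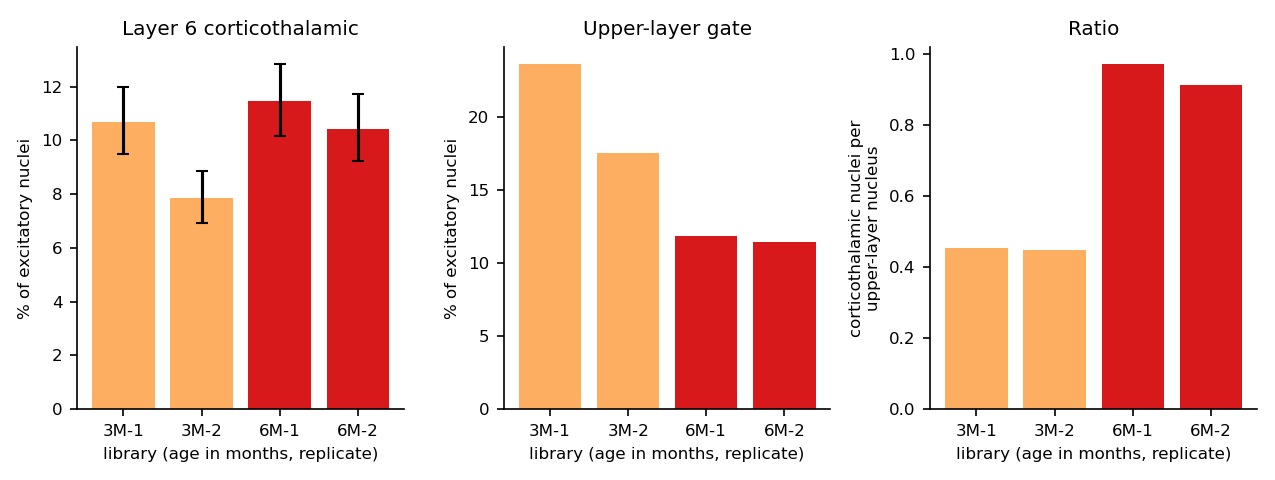
Corticothalamic nuclei as a percentage of excitatory nuclei (left, bars with exact 95% binomial intervals), upper-layer-gated nuclei as a percentage of excitatory nuclei (middle) and the number of corticothalamic nuclei per upper-layer nucleus (right) in each library, 3 months in orange and 6 months in red. The left bars overlap between ages, while the ratio is 0.453 and 0.448 at 3 months and 0.970 and 0.911 at 6 months.

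Within the corticothalamic nuclei, no gene passed the age test. Of 12662 genes outside the choice, 0 (0%) had an adjusted p below 0.05 in edgeR, 552 had an unadjusted p below 0.05, and DESeq2 also called 0, with 237 at an unadjusted p below 0.05. The absence of calls depends on the 3-month libraries, since 121 genes were called without 3M-1 and 633 without 3M-2, each leaving a lone 3-month library that is assumed to vary like the others. In simulated sums every gene was given the same shared spread, and changes were placed only in genes above a minimum of UMIs. Of those changed by a log2 fold change of 1, 51% were recovered, and of those changed by 2, 99%. Changes near 1 could thus be missed. Recovery of changes in genes with fewer UMIs or a wider spread was not tested.

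The genes with the smallest p are therefore given as values. The higher ones at 6 months were Gm21860, Neat1, Adgrd1, Bnc2 and Slit2, and the lower ones Zrsr1, Etv4, Gm47283, Cgn and Cemip. Zrsr1, a U2AF-related splicing factor gene, was at 27.7 and 37.6 CPM at 3 months and 10.2 and 6.02 CPM at 6 months (log2 fold change -1.96 ± 0.32, edgeR adjusted p = 0.614). Neat1, the nuclear RNA that builds paraspeckles, was at 18.5 and 15.3 CPM and then 38.1 and 51.4 CPM (1.43 ± 0.26, edgeR adjusted p = 0.865). Slit2, an axon guidance ligand, was at 32.9 and 21.5 CPM and then 96.2 and 54.5 CPM. Etv4 was at 33.2 and 44.2 CPM and then 17.8 and 16.5 CPM. The ages did not overlap for any of the 10, which is how such genes are picked. Of the 10, 7 passed without 3M-1 and 10 without 3M-2.

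The gene lists gave 0 calls with age too. Of the 13 corticothalamic markers tested, 0 passed, and their median log2 fold change was -0.06, against -0.01 over all genes. The median was -0.01 for 30 antioxidant genes, -0.22 for 13 stress and DNA damage genes, 0.05 for 22 glutamate receptor genes and 0.01 for 36 potassium and HCN channel genes. Gss, glutathione synthetase, was at 13.9 and 23.1 CPM at 3 months and 29.2 and 22.5 CPM at 6 months, so the ages overlapped. Medians were higher for 7 oligodendrocyte markers (0.87), the 3 astrocyte markers tested (0.75) and 8 microglial markers (0.69), with no gene called. Library 3M-1 was lowest for the oligodendrocyte and microglial sums given above. The part of free glial RNA in the age values was not tested.

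A second test asked whether age acted differently on corticothalamic and on other excitatory nuclei, as an interaction fitted with the mouse as a block. Of 17648 genes outside the choice, 58 passed (0.329%), 37 with a more positive age difference in the corticothalamic nuclei (0.21%) and 21 with a more negative one (0.119%). The difference is between changes and not between levels. Without 3M-1, 3M-2 or 6M-2 the count was 161, 192 or 145. DESeq2 called 14, 7 in each direction, and no gene was called without the mouse block or when the upper-layer gate was the comparison group. Upper-layer nuclei were a smaller share of the others at 6 months, as given above, and a different make-up of that group and a change within its cells cannot be told apart.

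The receptor tyrosine kinase Kit (chr5:75574916-75656722, forward) had the smallest p. It was at 27.4 and 18.8 CPM at 3 months and 11.1 and 14.9 CPM at 6 months in the corticothalamic nuclei, and at 9.004 and 6.12 CPM and then 14.8 and 27.5 CPM in other excitatory nuclei. It was thus above the others at 3 months in both mice and below them at 6 months in both, a difference of changes of -2.23 ± 0.24 (log2, SE, edgeR adjusted p = 0.000107). Kitl, which encodes its ligand, had the opposite sign, going from 19.1 and 16.4 CPM to 32.7 and 28.5 CPM in the corticothalamic nuclei and from 47.6 and 55.3 CPM to 42.6 and 35.9 CPM in the others (1.22 ± 0.19, edgeR adjusted p = 0.0039).

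Adgrd1, an adhesion G protein-coupled receptor, was at 14.4 and 18.4 CPM at 3 months and 37.5 and 39.0 CPM at 6 months in the corticothalamic nuclei. In other excitatory nuclei it was at 16.1 and 19.8 CPM and then 13.7 and 16.0 CPM, and the difference of changes was 1.57 ± 0.20 (edgeR adjusted p = 0.001). Plcl1, a phospholipase C-like protein, was at 27.1 and 48.1 CPM and then 74.6 and 64.3 CPM in the corticothalamic nuclei, with 164 to 205 CPM in the others throughout. Trps1, a GATA-type repressor, was at 93.0 and 94.7 CPM and then 142 and 142 CPM. Its values in other excitatory nuclei were 186 and 162 CPM and then 159 and 136 CPM.

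Of the 22 genes tested in the list of modulatory receptors, 1 had a more positive change, the muscarinic receptor Chrm3 (0.45 ± 0.09, edgeR adjusted p = 0.0404). Only Htr4 had a more negative one. The call for Chrm3 was lost in several settings, among them DESeq2 and without 3M-1 or 6M-1. Htr4, a serotonin receptor, was at 81.1 and 50.9 CPM and then 32.7 and 50.1 CPM in the corticothalamic nuclei and 26.8 and 25.5 CPM and then 36.2 and 41.9 CPM in the others (-1.20 ± 0.18, edgeR adjusted p = 0.00289). Adora1, the A1 adenosine receptor and not in that list, was at 91.5 and 74.0 CPM and then 52.7 and 63.1 CPM, with 25.6 to 43.7 CPM in the others. In upper-layer nuclei Htr4 went with age as in the corticothalamic nuclei (log2 -0.66 and -0.67 between the age means). Ror2, a Wnt receptor, was at 71.6 and 35.6 CPM and then 24.8 and 40.3 CPM, so its ages overlapped in the corticothalamic nuclei, and its call was lost without 3M-1 (-0.82). Kcnn2, a small-conductance potassium channel, overlapped as well in the corticothalamic nuclei, while in the others it was at 175 and 254 CPM and then 267 and 343 CPM.

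**Figure D5:**
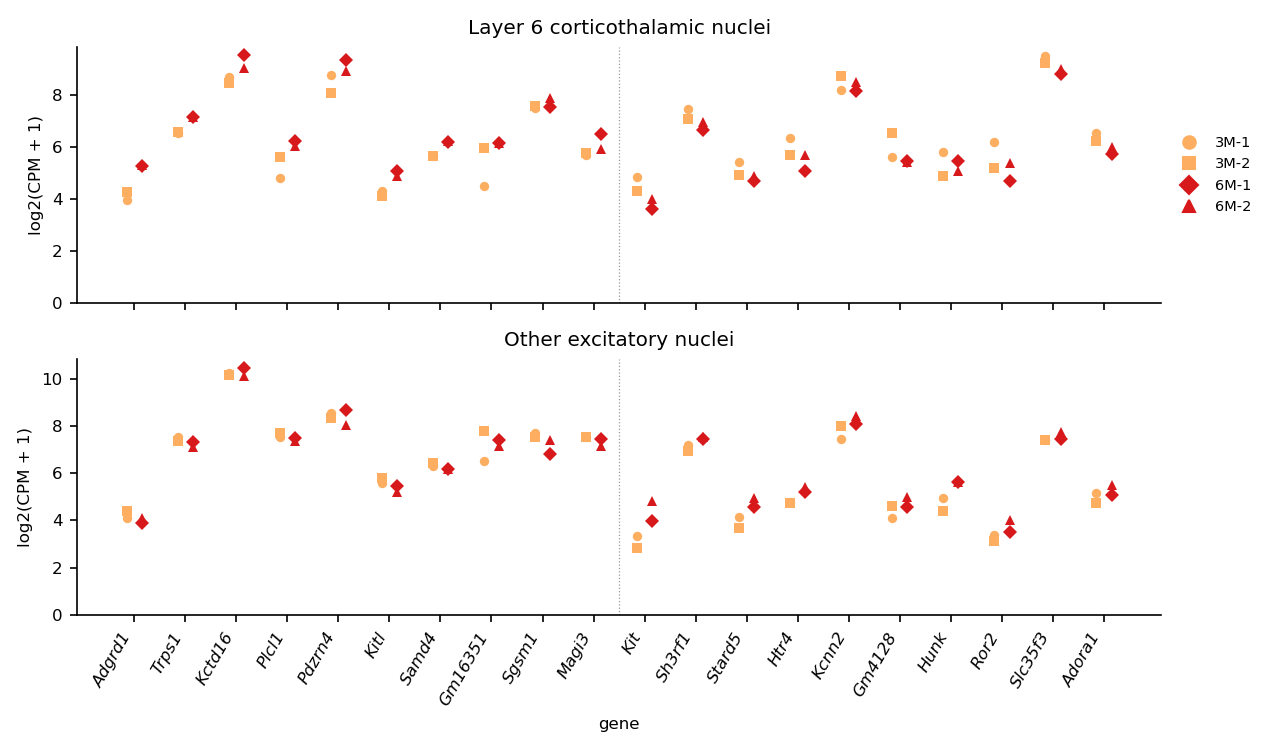
Levels of the 20 named genes of the interaction test as log2(CPM + 1) on the vertical axis, in corticothalamic nuclei (top) and other excitatory nuclei (bottom), with the 3-month libraries in orange and the 6-month libraries in red; genes left of the dotted line have a more positive age difference in corticothalamic nuclei. Adgrd1 is at 14.4 and 18.4 CPM at 3 months and at 37.5 and 39.0 CPM at 6 months in the top panel, where the 6-month points lie above the 3-month points.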

How the data were processed

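The authors made the deposited raw UMI counts per gene and nucleus with Cell Ranger 7.0.0 (per the file headers) on mm10 (per the submitters' processing notes). The members, comparison groups and gene lists were chosen with earlier results of these data known. Deposited totals ranged from 63429297 to 71255054 UMIs per library. Nuclei were gated as described, UMIs were summed per library and gate, and sums were compared with edgeR 4.0.16 in R 4.3.3 (filterByExpr, TMM, quasi-likelihood test, Benjamini-Hochberg over all genes, standard error from the F statistic), with DESeq2 1.42.0 as an alternative. The 9 genes of the choice entered the fits but no count. The fits were tested on simulated data. p-values measure the spread between 4 samples. Some genes are not reported here. Named genes were the 12 higher and 12 lower with the smallest adjusted p, an absolute log2 fold change of at least 1 and 1 direction in 4 mice, for the interaction the 10 and for age the 5 with the smallest p in each direction, and members of the lists. The batch number in the labels pairs the ages, yet replicate 1 minus replicate 2 correlated at -0.114 between ages over 12666 genes, and the age fit has no block. Coordinates are GENCODE M21 gene bodies (mm10). Scrublet ran in scanpy 1.11.5.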

Additional observations from a re-analysis of the deposited data

Results flagged for a closer look

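The interaction test, which asks whether the age difference in layer 6 corticothalamic nuclei differs from that in other excitatory nuclei, passed for 58 genes. The 10 with the smallest p in each direction are listed here with their difference of log2 changes. More positive in the corticothalamic nuclei were Adgrd1 (1.57), Kitl (1.22), Plcl1 (1.18), Trps1 (0.91), Gm16351 (0.90), Samd4 (0.84), Pdzrn4 (0.82), Magi3 (0.80), Sgsm1 (0.70) and Kctd16 (0.69). More negative were Kit (-2.23), Ror2 (-1.24), Stard5 (-1.24), Htr4 (-1.20), Gm4128 (-1.03), Hunk (-1.02), Sh3rf1 (-0.81), Adora1 (-0.78), Kcnn2 (-0.60) and Slc35f3 (-0.60). Without 3M-1 the calls for Ror2 (-0.82) and Hunk (-0.79) were lost, and without 6M-1 those for Magi3 (0.65) and Sgsm1 (0.59). In the mean CPM of each age, Adgrd1 changed by 1.22 (log2) in corticothalamic and by -0.28 in other excitatory nuclei, and Kit by -0.83 and 1.48. In upper-layer-gated nuclei, Kit changed by 0.83 and Hunk by 1.03, while Hunk changed by -0.14 in corticothalamic nuclei. Upper-layer nuclei were a smaller share of the comparison group at 6 months, and their part in these values was not tested.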

How the results depend on the processing

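The age comparison within corticothalamic nuclei gave 0 calls in the main setting and with RLE size factors, DESeq2, doublets left out, nuclei of 5000 to 20000 UMIs and a stricter gate, and 10 with no filter on low counts. Leaving out each library in turn gave 0 to 633. With the replicate number as a replicate block it gave 0, and with the numbers crossed between the ages, an alternative chosen after seeing the data, 74. The 4619 genes called against other excitatory nuclei came to 2463 with no replicate block, where the mouse was left out of the model, and stayed within 1.5 times in all other settings. The 1660 called against the layer 6b gate came to 1091 with DESeq2 and 1100 with no replicate block. The 58 interaction genes came to 14 with DESeq2, 176 with no filter, 91 without doublets, 0 with no replicate block and 0 (705 at an unadjusted p below 0.05) against the upper-layer gate, a comparison group chosen after seeing the data, and to 63 to 192 when libraries were left out. Of the 20 named interaction genes, 9 did not pass in DESeq2. The cause of these shifts was not tested.

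The share of excitatory nuclei kept its sign but ranged from 0.254 (without 3M-2) to 3.09 percentage points (without 3M-1). The ratio to upper-layer nuclei kept its sign in the settings tried, and the share of all nuclei turned to -0.00775 after thinning. Against the upper-layer gate the sign turned for Htr4 in the interaction (0.002), and in the level comparison for Adarb2 (-0.34), Gabrb2 (-0.10), Gss (0.17) and Ntsr1 (-0.082). It also turned for Gss without 6M-2 (0.02), Drd1 without 3M-1 (0.038) or 3M-2 (0.037, from -0.214 without 6M-1), with 5000 to 20000 UMIs (0.023), against the nuclei with no Foxp2 UMI and under 5 of Hs3st4 (0.358) and against the upper-layer gate (0.619), Prkcd under the stricter gate (0.215) and without 6M-2 (0.164, from -0.855 without 6M-1), Snap25 under the stricter gate (-0.022) and Stx1a against other excitatory nuclei with no Foxp2 UMI and under 5 of Hs3st4 (0.005). Of these, Adarb2, Gabrb2 and Htr4 had passed the main test. Depth limits genes at a few CPM, which rest on few UMIs, more so in the smaller layer 6b gate.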
